A study of Homo sapiens with 28 samples.

Results

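The regions described here separated 2 pairs of H3K27ac peak lists from SW872 cells, an established human liposarcoma line. The peaks of 1 pair carry the construct YAP5SA in their names, and those of the other pair carry EV, the empty vector. Each list was cut to its peaks with the highest −log10 p-value, as many as the shortest of the 4 lists holds, and peaks of the 4 lists that overlapped by at least 1 bp were merged into 53569 regions. A region was taken as YAP5SA-only when both YAP5SA-named lists and neither EV-named list held a peak in it, and as EV-only in the opposite case. There were 3102 YAP5SA-only and 6067 EV-only regions, together 9169 of the 53569, or 17.1%. The complete lists of all 14 libraries of the series merged into 138849 regions.

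H3K27ac is the acetylated form of lysine 27 of histone H3, and it marks active promoters and enhancers. YAP and its paralog TAZ are co-activators that do not bind DNA themselves and reach it mostly through TEAD transcription factors. The Hippo pathway holds them in check through the LATS kinases, which phosphorylate serines of YAP and TAZ and so keep them out of the nucleus. YAP5SA has the LATS target serines replaced by alanine and escapes this control, and TAZ4SA is the corresponding form of TAZ.

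The GEO labels name these libraries differently. The 2 YAP5SA-named lists (replicates 1 and 2) are labelled YAP-TFE3, a fusion of YAP with the C-terminal part of the transcription factor TFE3, and the 2 EV-named lists are labelled TAZ4SA. Such a mismatch between peak names and label was found in 14 of 14 lists, and which of the 2 namings holds was not tested. The groups below are called by the construct in the peak names and by the replicate number of the labels, which differs from that in the peak names for the TAZ4SA-named and YT-named lists (2 and 3 in place of 1 and 2), and the construct behind a difference between them stays uncertain. All libraries came from cells stably transduced with a retroviral construct under G418 selection, as pools rather than clones, so the empty vector cells had also been transduced and selected. Per the methods, the duplicates are biological, and replicates for sequencing were made by transducing cells separately. Cells were grown to 90% confluence before collection. The labels except CAMTA1 cells, as sub-confluent, while the methods for these libraries make no exception. The libraries labelled CAMTA1 are those with peaks named TC, for TAZ-CAMTA1, and not those with peaks named CAMTA1. Neither pair compared here carries that label. The constructs are Flag-tagged and overexpressed in a single line, and the antibody of these libraries is H3K27ac by the labels. Whether the cells expressed their construct, and whether they carry the marks of their tissue, cannot be read from lists of peaks without an annotation of their build. The 14 input libraries were not analysed here.

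The 4 lists differed in length and strength before they were cut. YAP5SA replicate 1 held 57505 peaks, of which 69.0% were kept, and YAP5SA replicate 2, the shortest, was used whole. EV replicate 1 held 102009 peaks and EV replicate 2 held 98992, so 38.9% and 40.1% of these lists were kept. The weakest peak kept had a −log10 p of 5.34 in YAP5SA replicate 1, 3.13 in YAP5SA replicate 2, 7.22 in EV replicate 1 and 7.13 in EV replicate 2. Equal numbers of peaks thus reached down to weaker peaks in both YAP5SA-named lists than in both EV-named ones. The kept peaks covered 72.6 and 51.6 Mb in the YAP5SA-named lists, and 136 and 110 Mb in the EV-named lists.

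EV-only regions outnumbered YAP5SA-only regions by 1.96 to 1. The YAP5SA-only regions were 5.79% of all merged regions and 14.1% of the 21924 regions that held a peak of both YAP5SA-named lists. The EV-only regions were 11.3% of all merged regions and 22.5% of the 26967 regions with a peak of both EV-named lists. All 4 lists shared 17392 regions (32.5%), and 20523 regions (38.3%) were in a single list, so a region found in 1 library and not in its duplicate was more frequent than a one-side region. A further 1547 regions (2.89%) had a peak in exactly 1 list of each side, and 4938 had a peak in 3 lists.

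**Figure D1:**
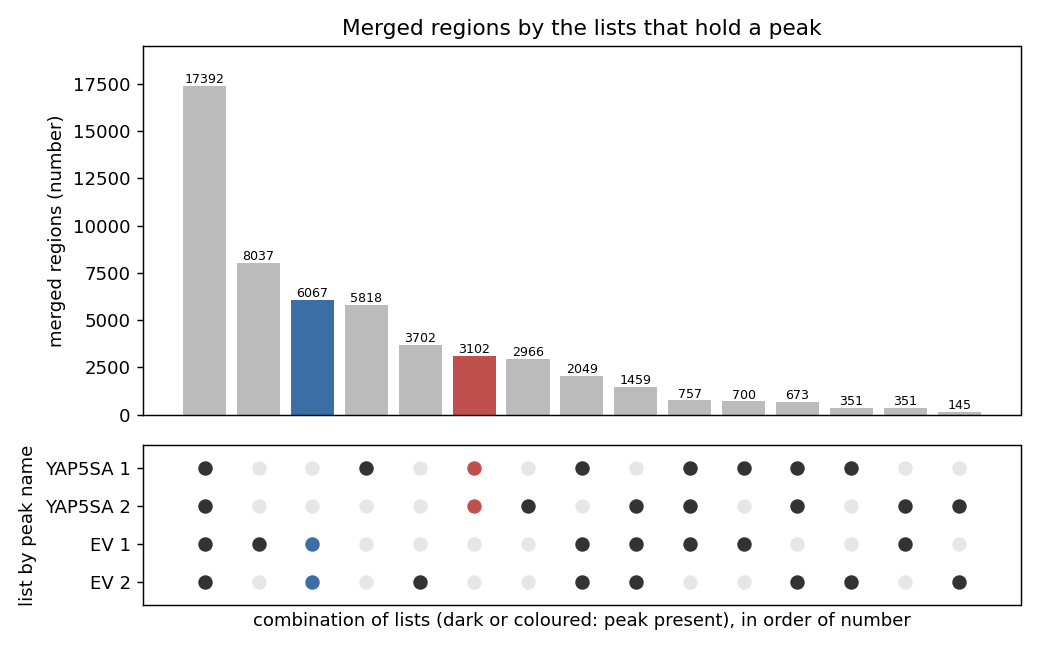
Number of merged regions (vertical axis) for each combination of the 4 lists that hold a peak, with the combination shown by dots under each bar. The red bar marks the 3102 YAP5SA-only regions and the blue bar the 6067 EV-only regions, both below the 17392 regions of all 4 lists at the left.

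Single lists gave the same order. Of the regions with a peak in YAP5SA replicate 1, 28.9% held no EV-named peak, and the share was 22.6% for YAP5SA replicate 2, a mean of 25.8% ± 4.47 (SD, n = 2). Of the regions with a peak in EV replicate 1, 38.3% held no YAP5SA-named peak, and the share was 30.7% for EV replicate 2, a mean of 34.5% ± 5.4 (SD, n = 2). Both EV-named lists were above both YAP5SA-named lists. With 2 lists a side the smallest exact two-sided permutation p is 0.333, so the difference was not tested. Without YAP5SA replicate 1 there were 7281 YAP5SA-only against 8190 EV-only regions, and without YAP5SA replicate 2 the order turned, with 9170 against 7537 (shares of 29.4% and 27.9%). Without EV replicate 1 the numbers were 4009 and 13514, without EV replicate 2 they were 3840 and 15148, and under the labels, where each list was cut to 30236 peaks, the length of the shortest, the libraries labelled YAP5SA had 1162 one-side regions against 1846 of those labelled empty vector. The order of the shares (14.1% and 22.5%) also turned when each list was cut to the length of the shortest of all 14, to 26.5% and 25.4%.

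An absence in a cut list was often not an absence in the complete one. Of the YAP5SA-only regions, 1480 (47.7%) had no EV-named peak even in the complete lists. In 864 regions (27.9%) 1 EV-named list held a peak below its cut, and in 758 (24.4%) both did. These peaks were far down their lists, at a median rank of 62108 of 102009 in EV replicate 1 and 62659 of 98992 in EV replicate 2. Of the EV-only regions, 4985 (82.2%) had no peak in the complete YAP5SA-named lists, and 1082 (17.8%) had a lower peak in YAP5SA replicate 1, at a median rank of 47867 of 57505. YAP5SA replicate 2 has no peaks below its cut, so the 2 sides were not given equal room to show such peaks. Regions that were absent from the complete lists of the other side and ranked within the first 20000 peaks in both of their own lists numbered 402 for YAP5SA and 918 for EV, or 13% and 15.1% of their classes.

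The one-side regions were narrower than the shared ones, and those of YAP5SA were the narrower of the one-side classes. The YAP5SA-only regions had a median width of 1378 bp, with quartiles of 838 and 2260 bp and a range of 317 to 9572 bp. The EV-only regions had a median of 2244 bp, with quartiles of 1450 and 3456 bp and a range of 299 to 18162 bp. Regions of all 4 lists had a median of 4576 bp. The classes overlapped widely in width. In all, 33.2% of the YAP5SA-only regions were under 1 kb and 1.90% were over 5 kb, against 11.4% and 10.4% of the EV-only regions, and 44.3% of the regions of all 4 lists were over 5 kb. The peaks of the EV-named lists were wider in general, with a median over all kept peaks of 2305 and 1807 bp against 1110 and 774 bp in the YAP5SA-named lists, and the part of this in the difference between the classes was not tested. YAP5SA-only regions were the wider ones when each list was cut to the length of the shortest of the 14 (5583 against 5283 bp), in windows around the summits (1335 against 1186 bp), without EV replicate 1 (1397 against 966 bp) and without EV replicate 2 (1435 against 1322 bp).

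**Figure D2:**
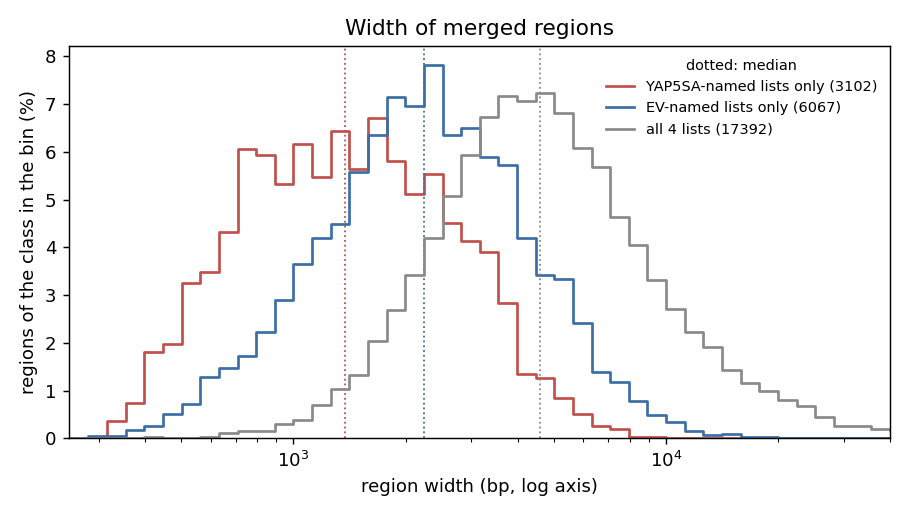
Width of merged regions in bp on a log axis against the percent of the class in each bin, for YAP5SA-only (red), EV-only (blue) and all-4 regions (grey), with dotted lines at the medians of 1378, 2244 and 4576 bp. The 3 distributions overlap and are shifted to the right in that order.

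Most one-side regions stood in the middle and lower part of the lists. The best peak of a YAP5SA-only region had a median rank of 19768 in YAP5SA replicate 1 and of 22832 in YAP5SA replicate 2. The best peak of an EV-only region had a median rank of 22519 in EV replicate 1 and of 25811 in EV replicate 2. Regions of all 4 lists had median ranks between 9172 and 10306 in the same lists. The first 10000 ranks held 11.8% and 7.80% of the YAP5SA-only regions and 2.79% and 1.48% of the EV-only regions, in replicates 1 and 2, against 48.7% to 53.8% of the shared regions. A larger share of the YAP5SA-only regions thus lay among the strongest peaks of their own lists. These ranks and the strengths below belong to the lists that chose the regions and are given as a description with no test.

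**Figure D3:**
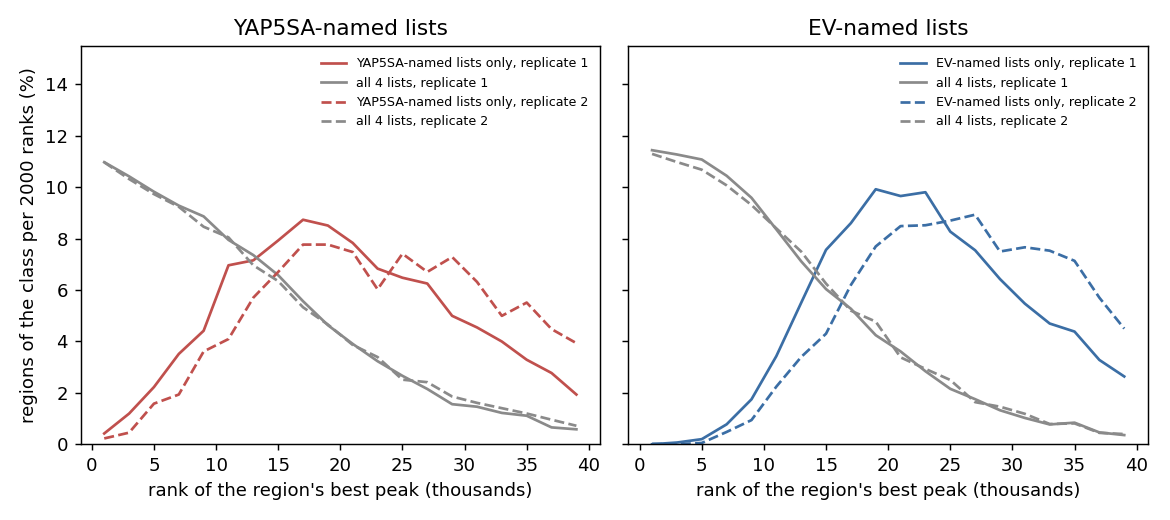
Rank of the best peak of a region within its own list (in units of 1000, low ranks are strong) against the percent of the class per 2000 ranks, for replicate 1 (solid) and replicate 2 (dashed). The one-side regions (red and blue) are few among the first ranks and broad below them, while the shared regions (grey) fall steadily.

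The strength of the one-side peaks was modest in both pairs. YAP5SA-only regions had a median fold enrichment over the local background of 5.23 in YAP5SA replicate 1 and 4.23 in YAP5SA replicate 2, from a median of 21 and 15 fragments at the summit, a number solved from the deposited fold and p. EV-only regions had a median fold of 6.45 in EV replicate 1 and 5.84 in EV replicate 2, from 23 and 16 fragments. Shared regions had median folds of 8.11 and 6.62 in the YAP5SA-named lists and of 15.4 and 13.5 in the EV-named lists. The EV-named lists were thus the stronger pair in the shared regions, the only class with peaks of both pairs. Of the one-side classes, each measured in its own lists, the EV-only regions had the higher folds, by a smaller margin. Duplicates placed their summits close to each other, with a median distance between the 2 summits of 166 bp in the YAP5SA-only, 183 bp in the EV-only regions, and 104 and 88 bp in the shared regions. The ranks of the 2 duplicates correlated across YAP5SA-only regions with a Spearman rho of 0.55 (3102 regions) and across EV-only regions with a rho of 0.60 (6067 regions), against 0.84 and 0.93 across shared regions, as a description over regions that share their libraries.

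The YAP5SA-only region that ranked best in its weaker list was chr21:46346069-46350025 (GRCh37, 3957 bp). It stood at rank 1913 of YAP5SA replicate 1, with 70 fragments and a fold of 18.4, and at rank 1230 of YAP5SA replicate 2, with 56 fragments and a fold of 15.7. EV replicate 2 had a peak there only at rank 63250, and EV replicate 1 had none. Among the other 10 lists of the series the 2 TAZ4SA-named lists held a peak in it and the remaining 8 did not. The second was chr5:37772070-37774281 (2212 bp), with 92 and 56 fragments at ranks 1570 and 1927, and no EV-named peak in either complete list. Next came chr1:11916886-11924037 (7152 bp), with 68 and 54 fragments at ranks 1964 and 1226, also without any EV-named peak. Of the other 10 lists, the chromosome 21 region was thus in none beyond the TAZ4SA-named ones, and the chromosome 1 region in 1 more, named for CAMTA1.

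The next 7 by the same rule lay on chromosomes 20, 5, 7, 15, 18, 9 and 17. The region chr20:59758728-59761176 had 86 and 58 fragments, and chr5:37270094-37276072, on the same arm of chromosome 5 as the second region, had 84 and 73. The region chr7:21655501-21659748, with 74 and 47 fragments, was in 8 of the other 10 lists, and chr15:73678519-73682899, with 64 and 48, was in 7. Both of these, like chr5:37270094-37276072 and the region on chromosome 17, also had a peak in each complete EV-named list, so they stood out by rank rather than by presence. The region chr18:26742402-26747061, with 58 and 47 fragments, lay 2511 kb from the nearest region of all 4 lists. The regions chr9:74752243-74758651 (79 and 49 fragments) and chr17:67756342-67761335 (64 and 42 fragments) lay 216 and 432 kb from one. Of these 10 regions, 3 had no peak in the complete EV-named lists, 10 were in both TAZ4SA-named lists, and none was absent from all of the other 10 lists.

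The EV-only region that ranked best in its weaker list was chr12:132111079-132112333 (GRCh37, 1255 bp). It stood at rank 4442 of EV replicate 1, with 126 fragments and a fold of 14.3, and at rank 1595 of EV replicate 2, with 102 fragments and a fold of 20.9. The complete YAP5SA-named lists held no peak there, and of the other 10 lists TAZ4SA replicate 2 alone did. It was also the narrowest of the 10 best EV-only regions, which reached 11194 bp. The second, chr2:12067973-12074911 (6939 bp), had 111 and 49 fragments at ranks 2793 and 5537, and the next, chr4:8200025-8205159 (5135 bp), had 74 and 46 fragments at ranks 6131 and 6130. Both had a lower peak in YAP5SA replicate 1, and they were in 6 and 8 of the other 10 lists.

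The next 7 lay on chromosomes 17, 19, 7, 16, 5, 20 and again 5. Strong members without a peak in the complete YAP5SA-named lists were chr17:72437456-72442394, with 100 and 51 fragments, chr7:29072843-29083464, with 107 and 55, chr5:66645133-66650905, with 105 and 52, and chr20:31167869-31173309, with 81 and 52. The regions chr19:17456082-17467275 (84 and 53 fragments), chr16:1976690-1980011 (70 and 48) and chr5:158414847-158421864 (96 and 61) had a lower peak in YAP5SA replicate 1. Of the 10 best EV-only regions, 5 had no peak in the complete YAP5SA-named lists and 0 were in both TAZ4SA-named lists, against 10 of 10 on the other side. Each of the 2nd to 10th was in TC replicate 1, YT replicate 2 and TFE3 replicate 1. The weaker rank ran from 1913 to 3279 in the 10 YAP5SA-only regions and from 4442 to 6956 in the 10 EV-only regions. The latter thus began further down by rank, in lists that were longer when complete.

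The widest members were longer on the EV side. The widest YAP5SA-only region was chr3:112365915-112375486 (9572 bp), with 58 and 46 fragments, followed by chr18:76630309-76638730 (8422 bp) and chr4:1314164-1322070 (7907 bp). The second of these had no EV-named peak in the complete lists and, among the other 10 lists, was in both TAZ4SA-named lists only. The widest EV-only region was chr15:90344842-90363003 (18162 bp), with 51 and 27 fragments, followed by chr1:94035171-94051461 (16291 bp) and chr17:17769225-17785243 (16019 bp). The first of these lay 0.477 kb from a region of all 4 lists. At the lower limit, the YAP5SA-only regions nearest the cut were chr22:39988347-39989091, with 13 fragments in both lists and rank 39641 in YAP5SA replicate 2, and chr11:45108984-45110753, with 26 and 9 fragments. The EV-only regions nearest the cut were chr21:40357256-40358659, with 24 and 11 fragments and rank 39642 in EV replicate 2, and chr12:128413537-128414909, with 17 and 16 fragments. The first peaks outside the cut were as strong as the last inside it, at a −log10 p of 5.34 in YAP5SA replicate 1, 7.22 in EV replicate 1 and 7.13 in EV replicate 2, where between 16 and 190 peaks were tied.

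The other 10 lists of the series, which took no part in choosing the regions, held the 2 classes unequally. A list held a region when any of its peaks overlapped it by at least 1 bp. EV-only regions were wider (median 2244 against 1378 bp), and the part of width and strength in these shares was not tested. The lists whose peaks are named TAZ4SA (labelled TAZ-CAMTA1) held the YAP5SA-only regions more often. TAZ4SA replicate 1 had a peak in 25.9% of the YAP5SA-only and 2.31% of the EV-only regions, and TAZ4SA replicate 2 in 70.7% and 31.4%. Lists named for TAZ-CAMTA1 (abbreviated TC, labelled CAMTA1), for YAP-TFE3 (YT, labelled TFE3) and for TFE3 (labelled YAP5SA) held the EV-only regions more often in all 6 cases. The lists named for CAMTA1 (labelled empty vector) were split.

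TC replicate 1 had a peak in 18.5% of the YAP5SA-only and 43.9% of the EV-only regions, and TC replicate 2 in 5.13% and 16.8%. YT replicate 2 had a peak in 16.2% and 42.3% of them, while YT replicate 1, the shortest of the 14 lists, held 3 and 9 regions of the classes. By the peak names these are fusions with the N-terminal part of TAZ or YAP, and by the labels full-length CAMTA1 and TFE3, and they leaned the opposite way to the TAZ4SA-named lists. By the labels the cells of the TC-named lists were sub-confluent, and the part of this in their shares was not tested. TFE3 replicate 1 had a peak in 6.13% and 30.0%, and TFE3 replicate 2 in 8.19% and 19.1%. CAMTA1 replicate 1 had a peak in 23.2% and 27.1%, and CAMTA1 replicate 2 in 39.1% and 35.0%. Of the regions of all 4 lists, between 71.5% and 97.6% had a peak in each of these 10 lists, apart from 24.7% in YT replicate 1.

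**Figure D4:**
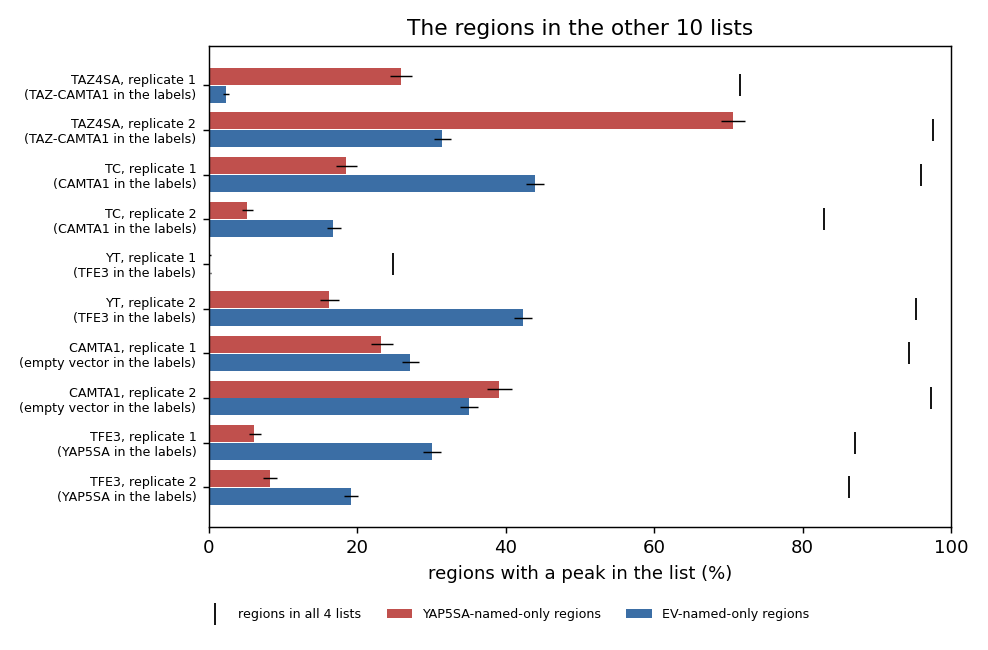
Percent of YAP5SA-only (red) and EV-only regions (blue) with a peak in each of the other 10 lists, with 95% Wilson intervals, which cover counting error only, and a black mark for the regions of all 4 lists. The red bar is the longer in both TAZ4SA-named lists (25.9% and 70.7%) and in CAMTA1 replicate 2, and the blue bar in the other 7.

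For each list the lean was taken as the log2 ratio of the share of YAP5SA-only regions to the share of EV-only regions with a peak in it, with 0.5 added to each number of regions. The greater width of the EV-only regions enters the lean, so 0 need not be its neutral value. The lean was 3.48 and 1.17 in the TAZ4SA-named lists, −1.25 and −1.71 in TC, −0.47 and −1.38 in YT, −0.22 and 0.16 in CAMTA1, and −2.29 and −1.22 in the TFE3-named lists. The mean over the 10 lists was −0.37 (SD 1.68, n = 10), with 3 lists above 0 and 7 below, and was not past the threshold of 0.05 in the exact two-sided sign-flip permutation test against 0 (p = 0.498, adjusted p = 0.514). The 6 lists named for a YAP or TAZ construct (TAZ4SA, TC and YT) had a mean of −0.03 ± 2.0 (SD, n = 6) and the 4 others −0.89 ± 1.1 (SD, n = 4). Their difference of 0.87 did not pass the exact two-sided permutation test over 210 splits (p = 0.514, adjusted p = 0.514), and the ranges of the leans overlapped. Both tests took the 10 lists as separate units, though they are duplicates of 5 names, and the mean joins names of opposite lean. With 1 mean per name the exact permutation tests could not reach 0.05, since their smallest p is 0.0625 and 0.1. The mean over the 10 lists was turned to 0.68 (exact permutation p = 0.551) when each list was cut to the length of the shortest, and without TAZ4SA replicate 1 it was −0.80 (exact permutation p = 0.0469, not adjusted). With 21748 peaks from each of the 9 lists that hold as many, the TAZ4SA-named lists had leans of 3.48 and 2.42, the CAMTA1-named lists 0.02 and 0.38, and the TFE3-named lists −2.79 and −1.51. CAMTA1 replicate 1 thus changed sign, and with the TC-named lists at −1.71 and −1.86 and YT replicate 2 at −2.18, 4 of 9 lists were above 0.

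The same division was seen in regions found in both lists of a name. Both TAZ4SA-named lists held a peak in 740 YAP5SA-only regions (23.9%) and in 90 EV-only regions (1.48%). Both TC-named lists did so in 108 (3.48%) and 803 (13.2%), and both TFE3-named lists in 85 (2.74%) and 806 (13.3%). The CAMTA1-named lists, at 560 (18.1%) and 1085 (17.9%), held the classes at nearly the same share. Of the 1480 YAP5SA-only regions with no peak in the complete EV-named lists, 294 (19.9%) were in both TAZ4SA-named lists and 16 (1.08%) in both TC-named lists. None of the other 10 lists held a peak in 518 YAP5SA-only (16.7%) and 1387 EV-only regions (22.9%), and 5 or more did in 340 and 1211.

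The strongest one-side regions were also the ones most often found elsewhere. They were the widest too. Within the first 10000 ranks the median was 3719 bp for YAP5SA-only and 4707 bp for EV-only regions, and beyond rank 30000 it was 912 and 1836 bp. The part of width in the shares below was not tested. Of the 151 YAP5SA-only regions within the first 10000 ranks of both their lists, 132 (87.4%) were in both TAZ4SA-named lists, 94 (62.3%) in both CAMTA1-named lists, 9 (5.96%) in both TC-named lists and 11 (7.28%) in both TFE3-named lists. Of the 57 EV-only regions within the first 10000 ranks, 4 (7.02%) were in both TAZ4SA-named lists, 37 (64.9%) in both CAMTA1-named lists, 43 (75.4%) in both TC-named lists and 38 (66.7%) in both TFE3-named lists. The CAMTA1-named lists thus took a like share of the strong members of each class, and the TAZ4SA-named lists did not. Among YAP5SA-only regions with a weaker rank between 10000 and 20000 the share in both TAZ4SA-named lists was 42.6% (of 798), between 20000 and 30000 it was 17.6% (of 1086), and beyond 30000 it was 7.22% (of 1067). Among EV-only regions the share in both TC-named lists was 30.3% (of 1177), 11.6% (of 2330) and 5.27% (of 2503) over the same ranges. Of the regions within the first 10000 ranks 0 were absent from all of the other 10 lists, and of those beyond rank 30000 it was 28.4% of the YAP5SA-only and 35.9% of the EV-only regions.

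One-side regions were spread over all of chromosomes 1 to 22 and X, with the 2 classes in unequal proportion. YAP5SA-only regions made up 33.8% of the one-side regions overall. Their share was lowest on chromosome 19, the most gene-dense human chromosome, with 69 YAP5SA-only against 331 EV-only regions (17.3%), and on chromosome 20, with 78 against 285 (21.5%). It was highest on chromosome 21, with 46 against 55 (45.5%), on chromosome 4, with 172 against 207 (45.4%), and on chromosome 13, with 80 against 97 (45.2%). Chromosome 19 held 2.22% of the YAP5SA-only, 5.46% of the EV-only and 4.61% of the shared regions, so the YAP5SA-only class was the one further from the shared regions there. On chromosome 20 the shares were 2.51%, 4.70% and 3.17%, and on chromosome 4 they were 5.54%, 3.41% and 3.38%. The local background of the peaks on chromosome 19, relative to the whole list, was 0.84 and 0.86 in the YAP5SA-named lists and 0.91 and 0.84 in the EV-named lists, and on chromosome 20 it was 1.41, 1.43, 1.47 and 1.4. The part of the background in the unequal numbers was not tested. Unplaced contigs held 15 EV-only and 0 YAP5SA-only regions.

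**Figure D5:**
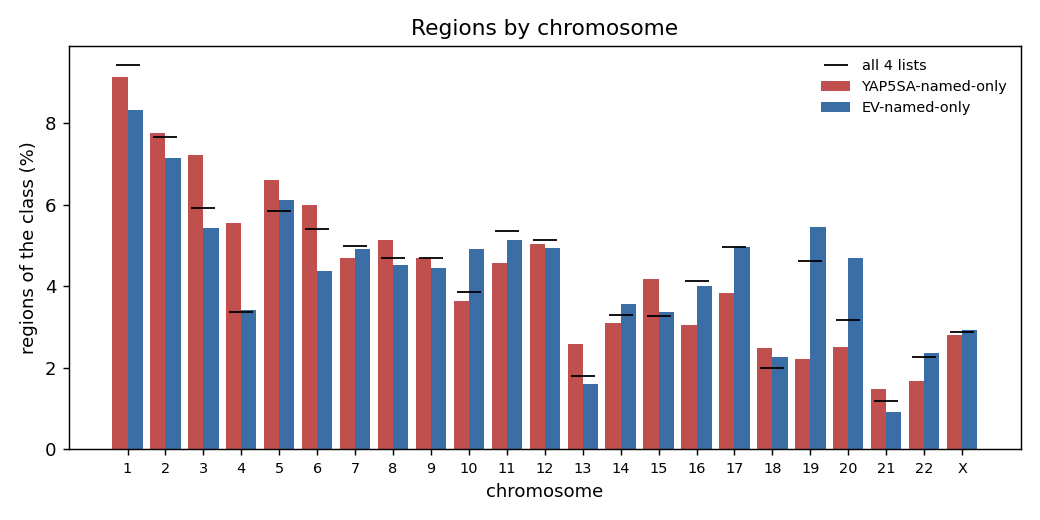
Percent of the YAP5SA-only (red), EV-only (blue) and all-4 regions (black marks) on each chromosome. The red and blue bars differ most on chromosomes 19 (2.22% and 5.46%), 20 (2.51% and 4.70%) and 4 (5.54% and 3.41%).

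In windows of 5 Mb, 367 of the 566 windows with a one-side region had more EV-only and 163 more YAP5SA-only regions. EV-only regions were also 1.96 times as many in all. The windows with the most EV-only regions were all on chromosome 19. The first lay at 0 to 5 Mb, with 55 EV-only against 2 YAP5SA-only and 104 shared regions. The second, at 15 to 20 Mb, had 49 against 1 and 81 shared. At 45 to 50 Mb the third had 45 against 8 and 117 shared. The window with the most YAP5SA-only regions was at 165 to 170 Mb of chromosome 5, with 24 against 4 EV-only and 16 shared regions. The next lay at 35 to 40 Mb of chromosome 17, with 23 against 22 and 64 shared. After it came 40 to 45 Mb of chromosome 19, with 20 against 26 and 83 shared. Both were also rich in EV-only regions.

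YAP5SA-only regions lay further from shared regions than EV-only ones. The median distance to the nearest region of all 4 lists was 36.9 kb for YAP5SA-only and 19.5 kb for EV-only regions, and 13.1 kb for regions of a single list. It was over 100 kb for 29.3% of the YAP5SA-only and 13.3% of the EV-only regions. EV-only regions were also more often grouped. Runs of at least 3 regions of the same class less than 50 kb apart numbered 117 for YAP5SA-only, with 417 regions (13.4%), and 447 for EV-only, with 1760 regions (29.0%). EV-only regions are about 1.96 times as many, and the part of their number in the longer runs was not tested.

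The longest YAP5SA-only run had 12 regions over 233 kb at chr19:43460021-43693171, on the chromosome where the share of the class among one-side regions was lowest. Its regions were narrow, at 380 to 2009 bp, 6 shared regions and 30 of other patterns lay among them, and 5 of the 12 had an EV-named peak below the cut. TAZ4SA replicate 2 held 11 of the 12, CAMTA1 replicate 2 held 5 and TAZ4SA replicate 1 held 2. The second run had 11 regions over 86.6 kb at chr17:39203965-39290586, up to 6899 bp wide with no region of another pattern among them, and 3 of them had an EV-named peak below the cut. TAZ4SA replicate 2 held all 11 and TAZ4SA replicate 1 held 7, while the CAMTA1-named lists held 2 and 6, and the TC, YT and TFE3-named lists between 0 and 1. The third run had 10 regions over 86.4 kb at chr5:167155465-167241842, in the window of chromosome 5 named above, with 8 regions of other patterns among them, and none of the 10 had an EV-named peak even below the cut. Each TAZ4SA-named list held 6 of these 10, and of the other 8 lists CAMTA1 replicate 1 alone held any, with 1.

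The longest EV-only run had 16 regions over 268 kb at chr20:51574789-51842294, between 1595 and 15287 bp wide, with 1 shared region and 12 of other patterns among them. The complete YAP5SA-named lists held no peak in any of the 16 EV-only regions. The TAZ4SA-named lists held 0 of the 16, while TC replicate 1 and TFE3 replicate 2 held 9 each and the CAMTA1-named lists 8 and 7. The second had 14 regions over 260 kb at chr4:17079853-17340127, with 4 shared regions and 14 of other patterns among them. Of the 14 EV-only regions 2 had a YAP5SA-named peak below the cut, the TAZ4SA-named lists held 0 and 2 and TC replicate 1 held 10. The third had 12 regions over 162 kb at chr3:177350368-177512418, with 1 shared region and 9 of other patterns among them. Of the 12 EV-only regions 1 had a YAP5SA-named peak below the cut, the TAZ4SA-named lists again held 0 and TC replicate 1 held 7. Runs were chosen by their length in the 4 lists, and the counts in the other lists are given as a description.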

How the data were processed

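Per the study's methods and the submitters' processing notes, reads were trimmed and aligned by BWA-MEM to the human build GRCh37/hg19. The authors dropped reads that mapped to several places or fell into greylist regions, and MACS2 called narrow peaks from the paired-end fragments. Each deposited list gives an interval and summit in bp, a fold enrichment (a ratio over local background) and, as −log10, the p-value and q-value of the summit. The methods state a q limit of 0.1 and pooled replicates. The lists used are 1 per library, and their lowest −log10 q was 1.30 to 1.33. Read totals were not used here.

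The lists of each side were taken by the construct in the peak names, which both lists of a GEO label share. The members and lists were chosen with earlier results of these data known. Peaks were ranked by the −log10 p (column 8), then fold, q and position. The authors' fold is fragments plus 1 over background plus 1 and p a Poisson tail, and solving both gave whole fragments (p within 0.1%) for at least 99.797% of peaks of each list. Regions named are, per side, the 10 whose weaker list ranks them best, the 3 widest, the 2 nearest the cut, the 3 windows with most regions and the 3 longest runs. Between the classes the other 10 lists were compared by exact permutation tests, adjusted together by the Benjamini-Hochberg method.

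Alternatives were other numbers of peaks, a −log10 q of at least 5, ranking by fold, chromosomes 1 to 22 and X, stitching within 1000 bp, windows reaching 500 bp to either side of a summit, overlap under 50%, absence from complete lists, each list left out, and naming by the labels. Equal lengths of 21748 peaks, the replicate block, 1 mean per name and the ratio of the 2 classes were alternatives chosen after seeing the data. Gene loci and promoter shares were not run, since the annotation at hand is of GRCh38 and coordinates were not converted. Python 3.11.15, numpy 2.4.6, pandas 2.3.3, scipy 1.17.1 and matplotlib 3.10.9 were used, and the code was tested on simulated data, where merged regions equalled a base-by-base map in 20 of 20 cases.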

Additional observations from a re-analysis of the deposited data

Results flagged for a closer look

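The leans of 3 pairs of names went opposite ways in every list, and these differences were not tested. Both TAZ4SA-named lists leaned to the YAP5SA-only regions (3.48 and 1.17), and both lists of TC (−1.25 and −1.71), of YT (−0.47 and −1.38) and of TFE3 (−2.29 and −1.22) leaned to the EV-only regions. The mean lean of the TAZ4SA-named lists exceeded that of TC by 3.80, that of YT by 3.25 and that of TFE3 by 4.08, on the log2 scale. The lean of YT replicate 1 (−0.47) rests on 3 YAP5SA-only and 9 EV-only regions, so its direction is weakly determined. By the labels these names are TAZ-CAMTA1, CAMTA1, TFE3 and YAP5SA. With 2 lists a name, the smallest exact two-sided permutation p is 0.333.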

How the results depend on the processing

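EV-only regions were the more numerous under 14 of 15 alternatives, and the log2 ratio of EV-only to YAP5SA-only regions (0.97) turned to −0.28 without YAP5SA replicate 2. Leaving out 1 list makes membership of its side depend on a single list, and gave 3840 to 9170 YAP5SA-only and 7537 to 15148 EV-only regions, shares of 17.2% to 29.4% and 27.9% to 39.4%, median widths of 473 to 1435 and 966 to 2326 bp, and log2 ratios of −0.28 to 1.98. With all peaks of each list there were 1798 and 22119 regions (7.72% and 44.4%, EV-only width 1126 bp, log2 ratio 3.62). With 20000 peaks there were 3403 EV-only regions (widths 2640 and 3481 bp). With as many peaks as the shortest of the 14 lists holds there were 1108 and 1220 (shares 26.5% and 25.4%, in the opposite order, widths 5583 and 5283 bp, log2 ratio 0.14), so the excess was small among the strongest peaks. A −log10 q of at least 5 gave 1446 YAP5SA-only regions (8.59% and 31.2%, YAP5SA-only width 1996 bp, log2 ratio 2.54). Stitching gave a YAP5SA-only width of 1987 bp. Windows around summits gave 5344 YAP5SA-only regions (21.8%, EV-only width 1186 bp, log2 ratio 0.22). Overlap under 50% gave 16182 EV-only regions (59.1%, 3249 bp, log2 ratio 1.99). Absence from the complete lists gave 1480 YAP5SA-only regions (6.75%, log2 ratio 1.75). Under the labels, which also shortened each list to 30236 peaks, there were 1162 and 1846 (6.15% and 9.07%, 849 and 1084 bp). The cause of these shifts was not tested.

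The mean lean of the 10 lists was turned from −0.37 to 0.68 at the length of the shortest list. Leaving out each list gave −0.80 to −0.16, and the exact permutation p was lowest at 0.0469 without TAZ4SA replicate 1 (labelled TAZ-CAMTA1 replicate 1) and highest at 0.801. For lists with a YAP or TAZ construct against the others, leaving out each list gave a difference between 0.16 and 1.22, with an exact permutation p of at least 0.397. At the length of the shortest list the difference was 2.2 (exact permutation p = 0.348), and with the construct in the labels the exact permutation p was 0.362. With the replicate number of the labels as a block, permuted within each number, that difference was again 0.87 (exact permutation p = 0.56). Replicate 1 had the higher lean in 3 of 5 names. With 1 mean per name, since duplicates of a name are not independent of each other, the exact permutation p was 0.563 for the mean and 0.8 for the difference, in designs whose smallest p is 0.0625 and 0.1. The counts of regions come from no test and have no block. Depth limits every absence: a list of fewer peaks can show fewer regions, and the 4 lists had equal numbers of peaks but ended at unequal strength.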
